A study of Arabidopsis thaliana with 6 samples.

Results

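The mitotic kinesins are a set of 10 Arabidopsis thaliana kinesin genes of the G2 phase and of mitosis, chosen by locus. The array annotation paired 1 probe each with 9 of them, out of 16548 genes that had a probe of their own and 38408 probes in all. PAKRP1 (AT4G14150) had no paired probe and was not analysed here. The cells come from a suspension culture carrying an estrogen-inducible VND1-GFP construct, shaken at 124 rpm in darkness at 23 °C, and their RNA was hybridised to Affymetrix AraGene arrays. VND1 is a NAC transcription factor that switches on vessel element differentiation. Induced cells had received 5 µM estrogen for 24 h (3 arrays), and uninduced cells were kept for the same 24 h without estrogen (3 arrays). Both groups carry the construct, and with no construct-free cells for comparison an effect of VND1 and an effect of estrogen cannot be told apart. Nothing in the labels says whether the samples of a group came from separate cultures, or from how many transformed lines. The p-values thus cover the spread among these arrays alone, and that spread may be technical.

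Kinesins are motor proteins that use ATP to move along microtubules or to shorten them. Plant cells build a spindle to separate chromosomes and then a phragmoplast, a microtubule scaffold that guides the new cell wall outward between the daughter nuclei. Many plant kinesins act in one of these arrays, and their transcripts accumulate around G2 and mitosis. Their level in a culture can therefore depend in part on the share of dividing cells, which was not measured here. Vessel elements stop dividing before they lay down their secondary wall. In bulk samples such as these, fewer dividing cells and less transcript per cell cannot be told apart.

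All 9 measured mitotic kinesins lay lower in induced than in uninduced cells, by 0.23 to 0.47 on the log2 scale, and none passed the test across all probes. The median difference, induced minus uninduced, was -0.40 over the 9 genes, against -0.02 over all 38408 probes, of which 54.2% were negative. Induced levels were 0.724 to 0.855 times the uninduced ones. By limma with Benjamini-Hochberg adjustment over all probes, 0 of 9 were lower at an adjusted p under 0.05 (adjusted p 0.566 to 0.9999), and 0% of all probes were lower by that rule. At an unadjusted p under 0.05, limma gave 3 of the 9 lower, against 2.74% of all probes. The direction of several of these genes was known when the set was chosen, so their shared direction is a description of the set.

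The sample titles carry array numbers, which split the arrays into a run of 2 (replicate 1 of each group) and a run of 4 with the remaining arrays. The meaning of these numbers is not stated in the labels. Array medians were 6.15 (induced) and 6.08 (uninduced) in the run of 2, and between 5.41 and 5.55 in the run of 4. Each kinesin is therefore also given within each run, where the run of 2 has 1 array a group. On every array each of the 9 probes lay between the 54.1th and the 94.0th percentile of all probes, so all were brighter than the median probe. Of 19 vessel markers listed, 5 were measured. All 5 rose, by 2.78 to 5.64 on the log2 scale, and passed the test, where 0.534% of all probes were higher. The call of IRX15-L, a gene of xylan synthesis and the second smallest of these rises, was lost when any array but uninduced replicate 1 was left out (adjusted p 0.104 to 0.180). The one measured leaf marker, RCA, gave 0.10 ± 0.35 (SE), and the one measured phloem marker, OPS, gave 0.20 ± 0.16. VND1 itself was not analysed here, as no probe was paired with it.

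**Figure D1:**
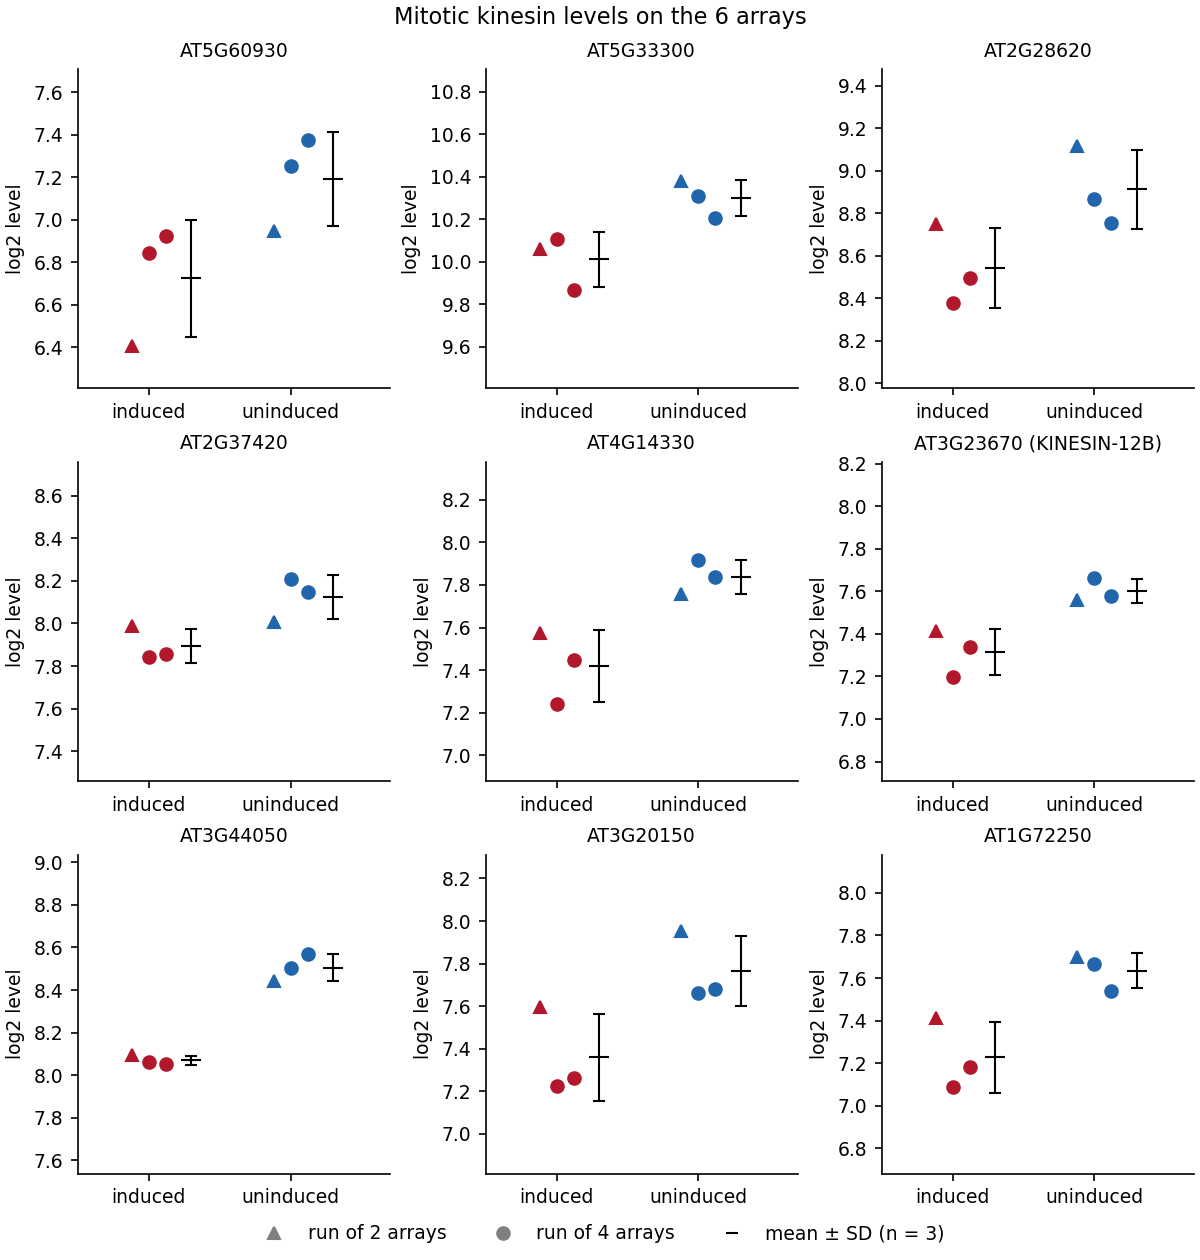
Log2 level (y axes, each spanning the same range of log2 units around its own gene) of the 9 measured mitotic kinesins on the 3 induced arrays (red, left) and the 3 uninduced arrays (blue, right), with triangles for the run of 2 arrays, circles for the run of 4, and black bars for the mean ± SD (n = 3). In the values as deposited, the induced arrays lie below the uninduced arrays in all 9 panels, against 7.81% of all probes. The nearest arrays are 0.35 apart for AT3G44050 and 0.01 for AT2G28620. After quantile normalization 6 of 9 stay apart (8.78% of all probes), and after centring 2 of 9 (3.57%).

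Chromokinesins bind chromosome arms or cross-linked microtubules, and 2 of the measured genes are related to them. AT5G60930 belongs to the kinesin-4 family, whose animal members travel with mitotic chromosomes and limit the length of overlapping spindle microtubules. Its level was 6.41, 6.84 and 6.92 on the induced arrays, against 6.95, 7.25 and 7.37 on the uninduced arrays. The groups were barely apart, by 0.02, and in both of them the array of the run of 2 was the lowest. The difference was -0.47 ± 0.20 (SE; limma adjusted p = 0.907), the largest of the 9, with -0.54 in the run of 2 and -0.43 in the run of 4. AT5G33300 is related to chromosome-associated kinesins and was assigned to no kinesin family, but is counted with the kinesins throughout. It read 10.06, 10.11 and 9.86 in induced cells, against 10.38, 10.31 and 10.21 in uninduced cells. The 3 induced arrays were all below the uninduced ones by at least 0.10, and the difference was -0.29 ± 0.13 (SE; adjusted p = 0.943), with -0.32 and -0.27 in the runs of 2 and 4.

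Kinesin-5 motors form tetramers that slide antiparallel microtubules apart and keep spindles and phragmoplasts bipolar. AT2G28620, the gene altered in the temperature-sensitive radially swollen7 mutant, is the best studied of them in Arabidopsis. It stood at 8.75, 8.38 and 8.50 in induced cells, against 9.12, 8.87 and 8.76 in uninduced cells. The highest induced array was only 0.01 below the lowest uninduced one, but these 2 arrays come from different runs. Within the runs the difference was alike, at -0.37 in each, and over all arrays it was -0.37 ± 0.17 (SE; adjusted p = 0.938). AT2G37420, a second kinesin-5 gene, had the smallest difference of the 9. Its level was 7.99, 7.84 and 7.86 in induced cells, against 8.01, 8.21 and 8.15 in uninduced cells. In the run of 2 the 2 arrays differed by only -0.02, and in the run of 4 by -0.33. The difference over all arrays was -0.23 ± 0.13 (SE; limma adjusted p = 0.9999).

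Phragmoplast kinesins organise the microtubule plus ends and carry material to the forming cell plate. KINESIN-12B (AT3G23670, also PAKRP1L) sits at the phragmoplast midline together with its close relative PAKRP1. Its level was 7.41, 7.20 and 7.34 in induced cells, against 7.56, 7.66 and 7.58 in uninduced cells. The uninduced arrays lay close together, within an SD of 0.06, and all were above the induced ones. The difference was -0.28 ± 0.13 (SE; adjusted p = 0.916), with -0.15 and -0.35 in the runs of 2 and 4. AT4G14330, known as PAKRP2, is a kinesin-10 motor found on vesicle-sized spots in the phragmoplast. It stood at 7.57, 7.24 and 7.45 in induced cells, against 7.76, 7.92 and 7.84 in uninduced cells. The groups were 0.18 apart, and the difference of -0.42 ± 0.14 (SE; adjusted p = 0.771) was -0.18 in the run of 2 and -0.53 in the run of 4.

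AT3G44050 and AT3G20150 belong to the kinesin-12 family too, in a branch apart from KINESIN-12B. AT3G44050 read 8.09, 8.06 and 8.05 in induced cells, against 8.44, 8.50 and 8.57 in uninduced cells. Its groups were the farthest apart of the 9, by 0.35, with an induced SD of 0.02. The difference was -0.43 ± 0.12 (SE), with the lowest p of the set (unadjusted p = 0.0104, limma adjusted p = 0.566) and values of -0.35 and -0.48 in the runs of 2 and 4. AT3G20150 read 7.60, 7.22 and 7.26 in induced cells, against 7.95, 7.66 and 7.68 in uninduced cells. In both groups the run of 2 stood above the run of 4, and the difference was -0.36 and -0.43 in these runs. Over all arrays it was -0.40 ± 0.17 (SE; adjusted p = 0.882).

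Kinesin-14 motors move toward microtubule minus ends, opposite to the families above. AT1G72250, the one gene of this family in the set, had levels of 7.41, 7.09 and 7.18 in induced cells, against 7.70, 7.66 and 7.54 in uninduced cells. The induced arrays were all lower, by at least 0.13 between the nearest pair. The difference was -0.41 ± 0.14 (SE; adjusted p = 0.780), with -0.28 and -0.47 in the runs of 2 and 4.

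**Figure D2:**
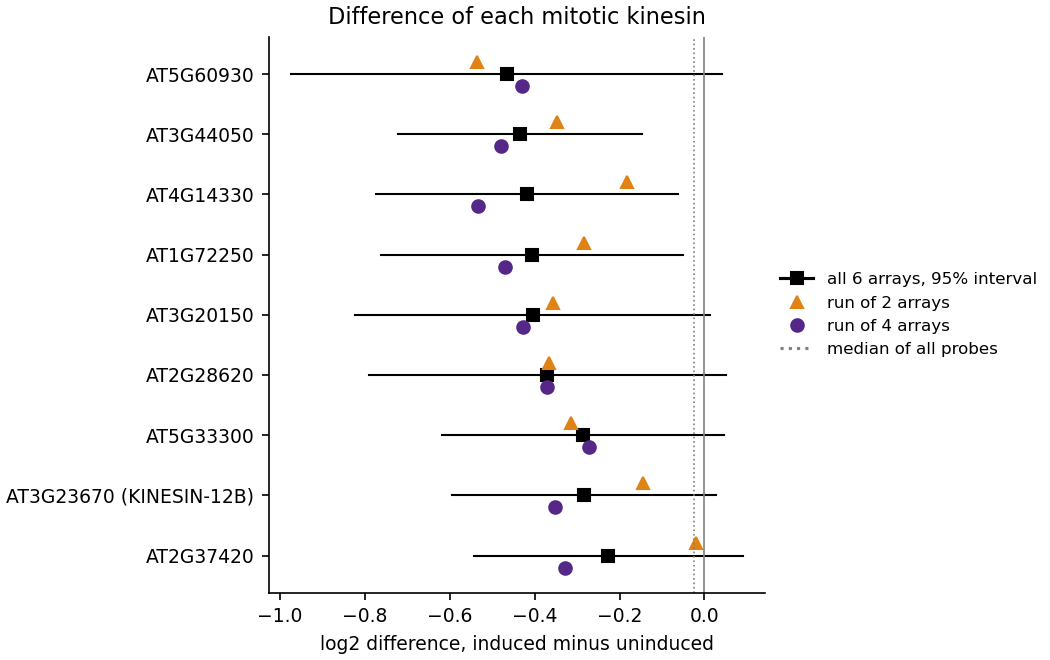
Log2 difference, induced minus uninduced (x axis), of each mitotic kinesin (rows, from the most negative down), with squares and lines for the estimate over all 6 arrays and its 95% interval, triangles for the run of 2 arrays and circles for the run of 4. All estimates in both runs lie below 0, from -0.54 to -0.02, and the 95% interval leaves out 0 for 3 of the 9 genes.

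The 9 differences were not ranked. No gap between neighbours in their order exceeded the combined standard error of the pair. The whole span from AT5G60930 to AT2G37420 was 0.24 with a combined error of 0.24. This combined error treats the genes of a pair as independent, though both were read on the same 6 arrays. It therefore cannot show whether their order would hold, and differences between genes within arrays were not tested. The unadjusted 95% intervals left out 0 for AT3G44050, AT4G14330 and AT1G72250, where they ran from -0.72 to -0.15, from -0.77 to -0.06 and from -0.76 to -0.05. The intervals of the other 6 reached no higher than 0.09. The change did not pass the test as different between the runs for any of the 9 (limma interaction, adjusted p 0.882 to 0.9996), with differences from -0.35 for AT4G14330 to 0.11 for AT5G60930, and 0% of all probes passed it.

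The 3 induced arrays lay fully below the 3 uninduced arrays for all 9 genes, against 7.81% of all probes. An exact two-sided permutation test of 3 against 3 arrays cannot go below p = 0.10 for any one gene. This separation depended on the scaling of the arrays. After quantile normalization 6 of the 9 stayed apart, against 8.78% of all probes, the overlapping ones being AT5G60930, AT2G37420 and KINESIN-12B. After each array was centred on its median, AT2G28620 and AT3G20150 alone of the 9 stayed apart, against 3.57% of all probes. Within the runs, the direction was negative for all 9 in both runs under each of these scalings, as it was for 32.5% of all probes in the values as deposited.

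The level in the run of 4 minus that in the run of 2, within groups, was -0.42 for the median probe. It was 0.42 for AT5G60930, -0.31 for AT2G28620 and -0.32 for AT3G20150, and between -0.19 and 0.03 for the other 6. With the run as a block, the standard errors of the 9 genes became 0.08 to 0.12, where they were 0.12 to 0.20 without it. The adjusted p was then 0.140 to 0.371, and 0 of 9 passed, while 0.0338% of all probes were lower. At an unadjusted p under 0.05, 8 of the 9 were lower with the block, against 8.49% of all probes, the exception being AT2G37420.

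Calls among the mitotic kinesins appeared under 1 combined setting. With the run as a block and the variance moderated with a trend and robust estimation, AT3G44050 (adjusted p = 0.0257), AT3G20150 (0.0385) and AT2G28620 (0.0433) were lower, 3 of 9 against 1.10% of all probes. AT5G60930 lay just outside the threshold at an adjusted p of 0.0501, and the largest was 0.236 for AT2G37420. By family, 2 of the 3 are kinesin-12 genes and the other is a kinesin-5 gene. Such calls were not particular to the set or to these families. The same setting called 4 of the 32 other kinesins lower, from families 10 and 14, and 3 higher.

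Kinesins outside the set lay to both sides of 0. Of 51 other kinesin genes listed, 32 had a probe. Among these 1 rose, 0 fell and 31 did not pass (0.534% of all probes were higher). Their differences were negative for 15 and positive for 17, with a median of 0.03. In limma before adjustment (p under 0.05), 4 were higher and 6 lower, against 3.0% and 2.74% of all probes. The gene that rose was AT4G38950, a kinesin-7 gene. It read 7.50, 7.33 and 7.43 in induced cells, against 5.74, 5.65 and 5.58 in uninduced cells, a 3.38-fold rise of 1.76 ± 0.12 on the log2 scale (SE; limma adjusted p = 0.00672). The call was lost without induced replicate 2, induced replicate 3, uninduced replicate 2 or uninduced replicate 3 (adjusted p 0.0653 to 0.0818), with values of 1.72 to 1.80.

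AT5G66310, also a kinesin-7 gene, had the next largest difference. It stood at 5.94, 5.35 and 5.39 in induced cells, against 4.73, 4.05 and 4.31 in uninduced cells. The groups were apart and the difference was 1.20 ± 0.26 (SE; adjusted p = 0.332). It was higher with the run as a block (adjusted p = 0.0168), after quantile normalization (0.0245), after centring (0.0417) and with array weights (0.0277). With a variance trend and robust estimation alone it did not pass (0.279). Its probe was dimmer than the median probe on every array, with percentiles from 25.4 to 49.2. AT3G45850 is a kinesin-5 gene, of the same family as AT2G28620 and AT2G37420. It read 9.87, 9.88 and 9.69 in induced cells, against 9.03, 9.08 and 9.11 in uninduced cells. The difference was 0.74 ± 0.12 (SE; adjusted p = 0.151), opposite in sign to those of AT2G28620 and AT2G37420. AT3G45850 was higher with a variance trend and robust estimation (adjusted p = 0.00944, or 0.00534 with the run as a block too) and with array weights (0.0389), and not under the run block alone (0.0594).

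**Figure D3:**
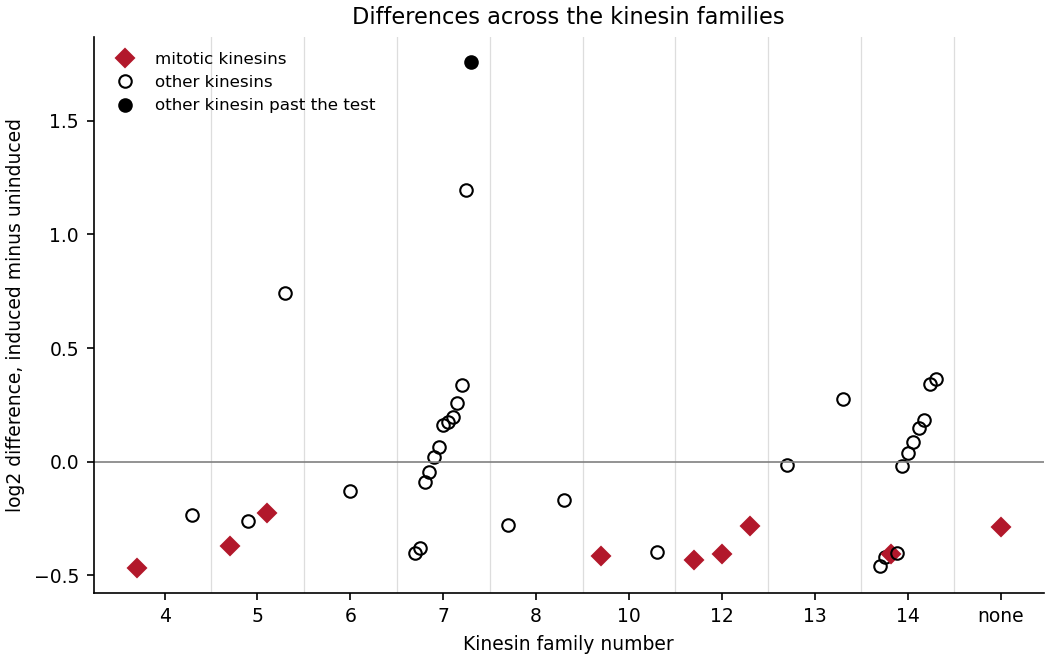
Log2 difference, induced minus uninduced (y axis), of the 41 measured kinesin genes by family (x axis, categories with genes spread sideways by value, "none" for AT5G33300), with diamonds for the 9 mitotic kinesins, open circles for the 32 other kinesins and a filled circle for the one past the test. The mitotic kinesins all lie between -0.47 and -0.23, while family 7 runs from -0.40 to 1.76.

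Families differed in how their genes were spread. All 3 measured kinesin-12 genes are mitotic kinesins and were negative. In family 5, 3 of 4 were negative, and the fourth is AT3G45850. The third negative gene, AT2G36200, is outside the set and outside the rule for named genes, and gave -0.26 ± 0.12 (SE). Family 7, which has no gene in the set, held 9 positive and 4 negative differences over 13 genes. Family 14 was split, with 5 negative and 6 positive, and 3 relatives of AT1G72250 lay between -0.46 and -0.40, where it had -0.41. In all, 9 of the 32 other kinesins had their induced arrays fully below the uninduced ones and 6 had them above, against 7.81% and 5.70% of all probes. After each array was centred on its median, 0 of the 32 were below, against 3.57% of all probes.

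The other genes of cell division were listed by function, though few had a paired probe. Of 36 regulators of G2 and mitosis, 5 were measured. None passed the test, and all 5 were negative, with a median of -0.36. At an unadjusted p under 0.05, 3 were lower, against 2.74% of all probes. The induced arrays were fully below for all 5 as deposited, against 7.81% of all probes, and for 1 after centring, against 3.57%. BUBR1, a spindle checkpoint protein that delays chromosome separation, gave -0.43 ± 0.16 (SE), BUB3.1, its partner, -0.39 ± 0.15, and the Aurora kinase AUR2 -0.36 ± 0.14. Under the combined setting of run block, trend and robust estimation, BUBR1 and BUB3.1 were lower (adjusted p = 0.0156 and 0.0379), 2 of 5 against 1.10% of all probes.

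Of 18 genes of chromosome structure and kinetochores, 7 were measured. None passed the test, and all 7 were negative, with a median of -0.27. At an unadjusted p under 0.05, 1 was lower, against 2.74% of all probes. The induced arrays were fully below for 3 of the 7 as deposited, against 7.81% of all probes, and for 1 after centring, against 3.57%. AT4G39630 gave -0.37 ± 0.26 (SE), TOPII, the topoisomerase that untangles sister chromatids, -0.36 ± 0.13, and ATSMC2, a condensin subunit, -0.28 ± 0.16. Both measured genes of DNA replication, of 20 listed, were negative without passing. Their induced arrays were fully below for both as deposited, against 7.81% of all probes, and for 0 after centring, against 3.57%. PRL, a subunit of the replicative helicase, gave -0.33 ± 0.14, and ICU2, the catalytic subunit of DNA polymerase alpha, -0.24 ± 0.12.

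The list of spindle and phragmoplast partners had too few measured genes to give a direction. Of 34 spindle and phragmoplast genes, 2 were measured and neither passed the test. The chromosome-binding protein gene 3xHMG-box1 gave -0.19 ± 0.12 (SE), and KEU, which acts in vesicle fusion at the cell plate, 0.11 ± 0.13. Of 15 tubulin genes, 6 were measured, 3 negative and 3 positive, with a median of 0.00 and none past the test (1 higher at an unadjusted p under 0.05, against 3.0% of all probes). TUA6 gave 0.59 ± 0.30, TUB6 0.48 ± 0.12 and TUB7 -0.28 ± 0.16. The probe of TUA6 was dim, with percentiles among all probes from 9.35 to 25.9, and its groups overlapped. With the dimmest 25% of probes left out, 4 tubulins remained, without TUA6. TUB1 and TUB9, outside the rule for named genes, were close to 0, at 0.005 ± 0.20 and -0.005 ± 0.18. TUB6 was higher with a variance trend and robust estimation (adjusted p = 0.0326, or 0.0125 with the run as a block too).

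**Figure D4:**
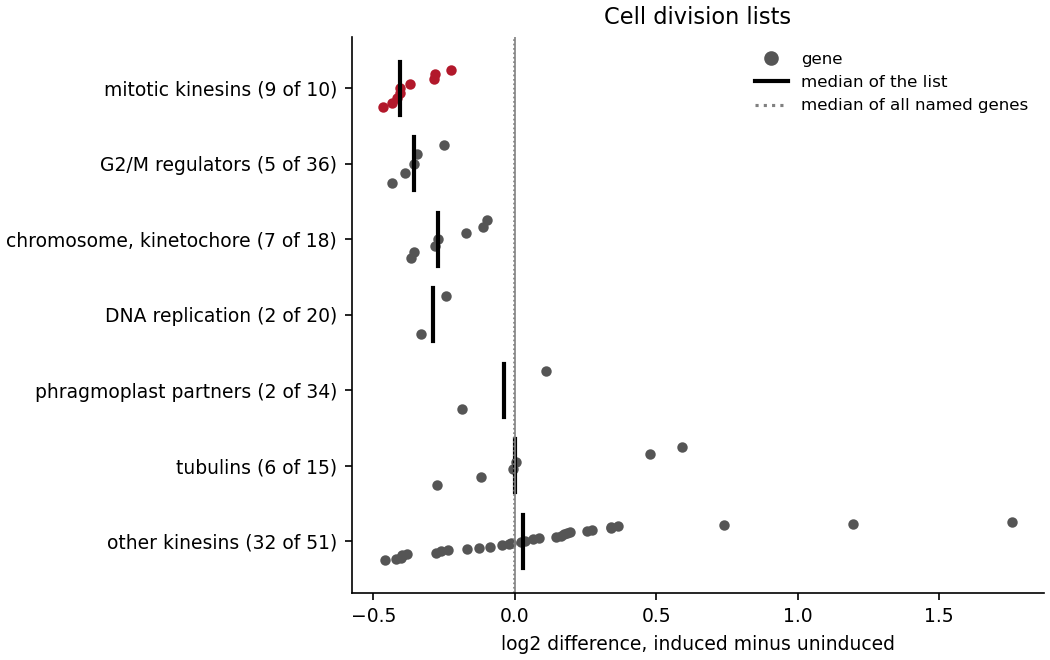
Log2 difference, induced minus uninduced (x axis), of each measured gene of the cell division lists (rows, with the number measured of the number listed), with points for genes, black bars for list medians and a dotted line for the median of all named genes. The mitotic kinesins (median -0.40) and the measured G2/M regulators (-0.36), chromosome and kinetochore genes (-0.27) and DNA replication genes (-0.29) lie below 0 throughout. The phragmoplast partners, the tubulins and the other kinesins have points on both sides.

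Once each run was centred on its own mean, the mitotic kinesins had similar profiles over the arrays. This likeness is largely set by their shared direction in both runs and is no separate evidence. Pearson's r of each gene with the mean of the other 8, over the 6 arrays, was 0.803 for AT5G33300 and 0.899 to 0.992 for the others, highest for AT3G20150. The 6 arrays share the division into induced and uninduced, and 13.8% of 16539 other named genes had an r of at least 0.803 with the mean of the 9. The 5 other genes most like that mean were AT5G64640, AT3G50940, AT1G52930, AT3G14160 and AT3G51270, with r between 0.998 and 0.999 over 6 arrays. Their differences ran from -0.63 for AT3G50940 to -0.09 for AT5G64640. None of the 5 passed the test, with adjusted p of 0.790 to 0.9999.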

How the data were processed

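Labelled RNA of 3 induced and 3 uninduced samples was hybridised to 1-colour arrays by the submitters. The authors made the deposited log2 values, 1 per probe and array, in Affymetrix Expression Console 1.3 (submitters' processing notes). The base of the logarithm is an inference from values between 0.30 and 14.05, since no source states it, nor the summarisation, background correction or joint normalization. No normalization was added. The number of arrays limits the precision.

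Groups came from the labelled stimulation, and replicate numbers follow deposition order and pair nothing. Probe names are those of the array annotation, with locus and symbol looked up by gene identifier in a RefSeq table of assembly TAIR10.1. Of 38408 probes, 16722 had 1 gene, 759 several and 20927 none, and 148 of the 16722 had no entry in that table. No coordinates or sequences are printed. All 38408 probes were fitted with limma 3.58.1 in R 4.3.3 (lmFit, eBayes, no trend, not robust), with Benjamini-Hochberg adjustment and a threshold of 0.05. SE is the moderated standard error, and 95% intervals are unadjusted. Each mitotic kinesin has 1 probe, and no other probe shares its 6 values.

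The members, gene lists and alternatives were chosen with earlier results of these data known. The rule names every measured mitotic kinesin, up to 3 genes per other list by size of difference with any past the threshold, and the 5 genes of most similar pattern. All 5 measured vessel markers passed and are given as a range.

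The test was checked on simulated data for the induced against uninduced comparison, with and without the block. Of 500 simulated log2 changes of 0.4, near the size of those of the kinesins, it called 0 without the block and 1 with it. Of changes of 2 it called 34.6% without the block and 65.8% with it. The check gave no values for the run as a block with variance trend and robust estimation. Alternatives changed the variance moderation, the scaling of the arrays, the filter on dim probes, array weights, the run as a block, the arrays and probes used, and the threshold. Figures were drawn with matplotlib 3.10.9.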

Additional observations from a re-analysis of the deposited data

How the results depend on the processing

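The median difference of the mitotic kinesins stayed negative under all alternatives run, from -0.45 to -0.31 with an array left out (-0.40 as reported), and each of the 9 genes was negative in all 19 settings in which it was fitted. None of the 9 was called in any setting except the run as a block with variance trend and robust estimation, where 3 were. That setting also called 7 other kinesins (3 higher, 4 lower), 2 regulators of G2 and mitosis, 1 tubulin and 1225 of all probes. Other kinesins called, against 1 as reported, numbered 2 with a variance trend and robust estimation, with quantile normalization, with each array centred, with the run block alone, and with that block after either scaling. They numbered 3 with array weights and with the block at an adjusted p under 0.1. Leaving out an array gave 0 to 1. The variance trend called 1 tubulin. All probes called, against 205, numbered 365 with the variance trend, 323 with quantile normalization, 485 with array weights and 394 under the run block. With this block they numbered 385 after quantile normalization, 387 after centring and 631 at an adjusted p under 0.1. They numbered 56 to 154 with an array left out. The block after either scaling, and at the wider threshold, was chosen after seeing the data. RCA ran from -0.14 without induced replicate 1 to 0.41 without uninduced replicate 1. Leaving out uninduced replicate 3 gave it -0.12. Leaving out an array unbalances the runs and moved the median of all probes to between -0.19 and 0.11. No paired analysis was possible because the labels carry no replicate numbers, and the run block compares the groups within runs without pairing the arrays of the run of 4. With 3 arrays a group, a missing call does not show that a kinesin was unaltered.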
